A study of Mus musculus with 32 samples.

Results

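The comparison described here follows organoids of a mouse Mettl3 knockout (KO) line over the last interval of a retinal differentiation series, from day 4 to day 6. It uses 4 of the 32 libraries of the series, the pair of Mettl3 KO organoid libraries of day 4 and the pair of day 6, chosen by their labels. All 55492 genes of the table were read, and the 16276 with at least 1 FPKM in at least 2 of the 32 libraries were tested. The series grew embryonic stem cells of the Rx:GFP line, called WT here, a Mettl3 KO line, and the KO line overexpressing a METTL3-GRBD fusion protein with or without Dex, and collected each at days 0, 2, 4 and 6 with 2 libraries per line, condition and day. Every organoid group used here, WT included, received the agent AGN at 0.1 µM. The fusion line used for comparison also received Dex at 10 µM. The labels do not say how many clones stand behind the KO or the fusion line, which part of the gene was altered, or whether the libraries of a pair came from separate cultures. P-values then measure only the spread between these libraries, which may be technical.

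METTL3 is the catalytic subunit of the enzyme complex that writes N6-methyladenosine (m6A) into messenger RNA, a mark that is read by YTH-domain proteins and affects how long a transcript lasts. Pluripotent cells that become neural tissue leave the epiblast state, exchange the epithelial cadherin Cdh1 for the neural cadherin Cdh2, and then take on a position along the head-to-tail axis. The eye field is the most anterior part of the neural plate that forms the retina, and Rax, Six3, Six6, Lhx2 and Pax6 define it. Territories behind it, the diencephalon and midbrain, are defined by other homeobox genes, and the dorsal edge of the plate gives rise to the neural crest.

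FPKM are fragments per kilobase of transcript, scaled to the number of fragments in the library. Depth read back from the steps of low FPKM values was 37.3 M and 41.2 M fragments (M, mega) at day 4 and 44.1 M and 48.2 M at day 6, within the range of 28.8 M to 55.5 M over all libraries. A transcript of 2 kb with 3 fragments would read 0.037 to 0.047 FPKM in these 4 libraries, a limit that covers counting error only. The log2 values of the paired libraries correlated across genes with r of 0.9942 at day 4 and 0.9955 at day 6. Of the 16276 genes, 10633 (65.3%) passed limma at an adjusted p under 0.05, of which 5674 (34.9%) rose and 4959 (30.5%) fell. "Rose" and "fell" below mean that a gene passed this test. Changes were mostly small, with a median size of 0.48 among genes that passed. Only 977 genes (6%) rose and 834 (5.12%) fell by at least 1 on the log2(FPKM + 1) scale, which is the scale of every change given here and which understates the change of low genes. Both day 6 libraries lay on one side of both day 4 libraries in 10623 genes that passed (65.3%). Because 65.3% of all genes passed, a list of which a like share passed is not set apart by that share.

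Mettl3 itself (ENSMUSG00000022160, GRCm38 chromosome 14, 52294841 to 52305128, minus strand) was measured at 34.9 and 38.4 FPKM at day 4 and at 37.9 and 37.3 FPKM at day 6. Its change was 0.04 ± 0.06 (SE, limma adjusted p = 0.611), and the libraries of the 2 days overlapped. WT organoids stood at 33.5 ± 1.39 to 35.7 ± 0.86 FPKM (SD, n = 2) over the same days. The transcript was thus as abundant in the KO libraries as in WT, and since the labels do not state which part of the gene was altered, its level checks no label. Of 19 measured members of the m6A machinery, 6 rose, 4 fell and 9 did not pass, with a median change of 0.04 against 0.01 over all genes. The RNA-binding protein Igf2bp3, a reader that stabilises bound transcripts, rose from 27.6 and 27.6 FPKM to 60.4 and 58.2 FPKM, the largest change in the list. Rbm15b, which helps to bring the writer complex to its targets, rose from 38.1 and 39.6 FPKM to 65.4 and 67.8 FPKM. The demethylase Fto rose by 0.31, while Wtap, the adaptor of the writer complex, fell by 0.12. Mettl14, the partner of METTL3, had 26.8 and 26.1 FPKM at day 4 and 27.6 and 26.5 FPKM at day 6 and did not pass (limma adjusted p = 0.534).

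Genes of the epithelial state fell, with the lowest median of all lists read. Of 16 measured epithelial and surface ectoderm genes, 15 fell, 12 of them by at least 1, and their median change was -2.0. It was -3.18 among members with a mean of at least 5 FPKM. Here and for the lists below, that mean is taken over all 32 libraries, so it can leave out genes that are high only at KO day 6. Their summed level dropped from 545.5 and 559.4 FPKM at day 4 to 42.9 and 41.8 FPKM at day 6. In bulk libraries, fewer cells of a type and less RNA per cell cannot be told apart, here and in every group below. The promoters of Epcam, which encodes a cell surface adhesion protein, and of Cldn6, a tight junction claudin, are shown first, because both were among the 4 genes of the list with the largest falls and each holds the E-box CAGGTG, the sequence bound by zinc finger repressors of the Snail and Zeb families. Each line gives the 250 bases before the start of transcription from RefSeq (GRCm38.p6), 5′ to 3′ on the plus strand, with the E-box, on either strand, in capitals.
Epcam, chr17:87635729-87635978: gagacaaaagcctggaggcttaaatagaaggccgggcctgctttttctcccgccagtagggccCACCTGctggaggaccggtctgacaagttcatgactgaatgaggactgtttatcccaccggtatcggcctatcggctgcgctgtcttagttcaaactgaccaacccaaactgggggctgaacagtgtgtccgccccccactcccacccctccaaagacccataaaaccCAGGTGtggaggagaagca
Cldn6, chr17:23679115-23679364: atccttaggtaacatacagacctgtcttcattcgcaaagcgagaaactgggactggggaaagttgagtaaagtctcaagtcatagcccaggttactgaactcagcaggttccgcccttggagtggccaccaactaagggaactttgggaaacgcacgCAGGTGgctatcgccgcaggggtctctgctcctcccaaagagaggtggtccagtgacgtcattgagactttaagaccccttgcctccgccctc
Epcam holds 2 matches, which start 187 and 19 bases before the transcription start, and Cldn6 holds 1 match, which starts 93 bases before it. For Cldn6 the GENCODE gene start, 23679249, lies inside the window shown and upstream of the match. By that annotation the Cldn6 match is within the gene. CAGGTG or its complement CACCTG was present in 8 of the 9 falling members for which the promoter table has an entry (88.9%), against 17.2% of 32851 promoters of the same length in the table and 19.4% of 27025 genes. These 8 were Epcam, Cldn4, Cldn6, Cldn7, Grhl3, Krt7, Krt8 and Krt18, with Cldn7 holding it in 1 of its 2 entries, and Cldn3 was the ninth. Krt8 and Krt18 are neighbours in the genome, as are Cldn3 and Cldn4, so these promoters are not independent. The motif was chosen after the falls were seen, and a match describes the letters of the window and shows no binding. Among neural progenitor genes that rose and have an entry, 1 of 12 held it (8.33%).

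Cdh1, the epithelial cadherin (GRCm38 chromosome 8, 106603351 to 106670246, plus strand), measured 107 and 106 FPKM in the day 4 libraries and 3.47 and 2.91 FPKM at day 6. The libraries of the 2 days were far apart, and the fall was 4.68 ± 0.04 (SE, limma adjusted p = 8.07e-24), a 33.3-fold difference in mean FPKM. Epcam (GRCm38 chromosome 17, 87635979 to 87651129, plus strand) fell from 115 and 116 FPKM to 3.70 and 3.83 FPKM, by 4.61 ± 0.06 (limma adjusted p = 3.67e-21). Cldn6 (GRCm38 chromosome 17, 23679249 to 23682446, plus strand) went from 110.3 and 114 FPKM to 1.70 and 1.63 FPKM, and its fall of 5.41 ± 0.10 was the deepest in the list (limma adjusted p = 1.47e-19). The other claudins of the list, which seal the tight junctions between epithelial cells, moved the same way. Cldn7 fell from 40.8 and 44.5 FPKM to 0.57 and 0.90 FPKM, Cldn3 from 72.8 and 76.8 FPKM to 3.13 and 2.86 FPKM and Cldn4 from 12.7 and 11.9 FPKM to 1.47 and 1.39 FPKM. Esrp1, a splicing regulator that keeps epithelial isoforms, fell from 10.97 and 10.9 FPKM to 0.31 and 0.33 FPKM, and Grhl2, a transcription factor of epithelia, fell from 1.73 and 1.60 FPKM to 0.13 and 0.06 FPKM. Outside the list, Crb3, a protein of the apical polarity complex, was among the 12 largest falls of all genes, from 31.6 and 31.5 FPKM to 0.77 and 0.58 FPKM.

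The keratins of simple epithelium fell less than the junction genes and stayed measurable. Krt8 fell from 28.6 and 30.3 FPKM to 9.27 and 9.52 FPKM, Krt18 from 22.6 and 23.5 FPKM to 8.65 and 7.96 FPKM and Krt19 from 11.8 and 11.9 FPKM to 3.47 and 3.30 FPKM. Tfap2c, a transcription factor of surface ectoderm and of early germ cells, was the 1 member that rose, from 2.17 and 2.42 FPKM to 5.14 and 5.13 FPKM. Krt5, Krt14, Trp63 and Gata3, which mark stratified epidermis and other surface ectoderm, did not reach the minimum level for testing. The Snail family itself was split. Snai1 fell from 3.17 and 3.37 FPKM to 1.55 and 1.29 FPKM, whereas Snai2 rose from 1.17 and 1.03 FPKM to 4.15 and 4.33 FPKM.

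Pluripotency genes fell with the epithelial genes, and most of those still high at day 4 belonged to the core and formative set rather than to the naive one. Of 14 core and formative genes, 12 fell, 10 of them by at least 1, 1 rose and 1 did not pass, with a median of -1.80. Pou5f1, the central transcription factor of pluripotency, fell from 204 and 199 FPKM to 12.4 and 11.1 FPKM, by 4.00 ± 0.05 (limma adjusted p = 1.52e-21). Day 4 libraries thus still held Pou5f1 at a level 17.2 times that of day 6. The chromatin factor Utf1 fell from 91.2 and 96.8 FPKM to 4.21 and 4.16 FPKM and the RNA-binding protein L1td1 from 39.5 and 39.9 FPKM to 2.40 and 2.08 FPKM. Fgf5, the growth factor that marks the post-implantation epiblast, fell from 31.1 and 26.6 FPKM to 0.08 and 0.14 FPKM (change -4.75 ± 0.09, limma adjusted p = 3.53e-19). The de novo DNA methyltransferase Dnmt3b fell from 131 and 131 FPKM to 13.8 and 13.7 FPKM, while its relative Dnmt3a had 22.9 and 21.9 FPKM at day 4 and 24.8 and 24.97 FPKM at day 6, a small rise of 0.14 that was lost under 1 or more alternative settings. Lin28a, a blocker of let-7 maturation, fell by 1.09 and was still at 111 and 109 FPKM at day 6.

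Sox2, shared by pluripotent and neural cells, did not follow the other core genes. It measured 209.8 and 206 FPKM at day 4 and 211 and 210.5 FPKM at day 6, with overlapping libraries (limma adjusted p = 0.717). Pou3f1, a POU factor of the epiblast and early neural plate, fell only by 0.87, from 34.7 and 36.95 FPKM to 19.3 and 18.99 FPKM. Among 14 naive genes 9 fell, 1 rose and 4 did not pass, with a median of -0.43. Nanog fell from 22.1 and 22.4 FPKM to 4.78 and 5.12 FPKM after a KO mean of 191 FPKM at day 0. Zfp42 fell from 12.7 and 12.7 FPKM to 6.55 and 5.94 FPKM, from 588 at day 0. Klf2 fell from 18.02 and 18.9 FPKM to 8.25 and 9.32 FPKM, from a mean of 231 FPKM at day 0. In mean FPKM, most of the drop of these 3 genes lay before day 4. The largest fall of any gene on the log2 scale was that of Pim2, a survival kinase, from 420.3 and 430.4 FPKM to 8.72 and 9.03 FPKM (-5.43 ± 0.04, limma adjusted p = 1.73e-24). Calca, the calcitonin gene, and Vrtn fell from 39.1 and 32.4 FPKM to 0.64 and 0.36 FPKM and from 33.6 and 35.9 FPKM to 0.41 and 0.62 FPKM.

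**Figure D1:**
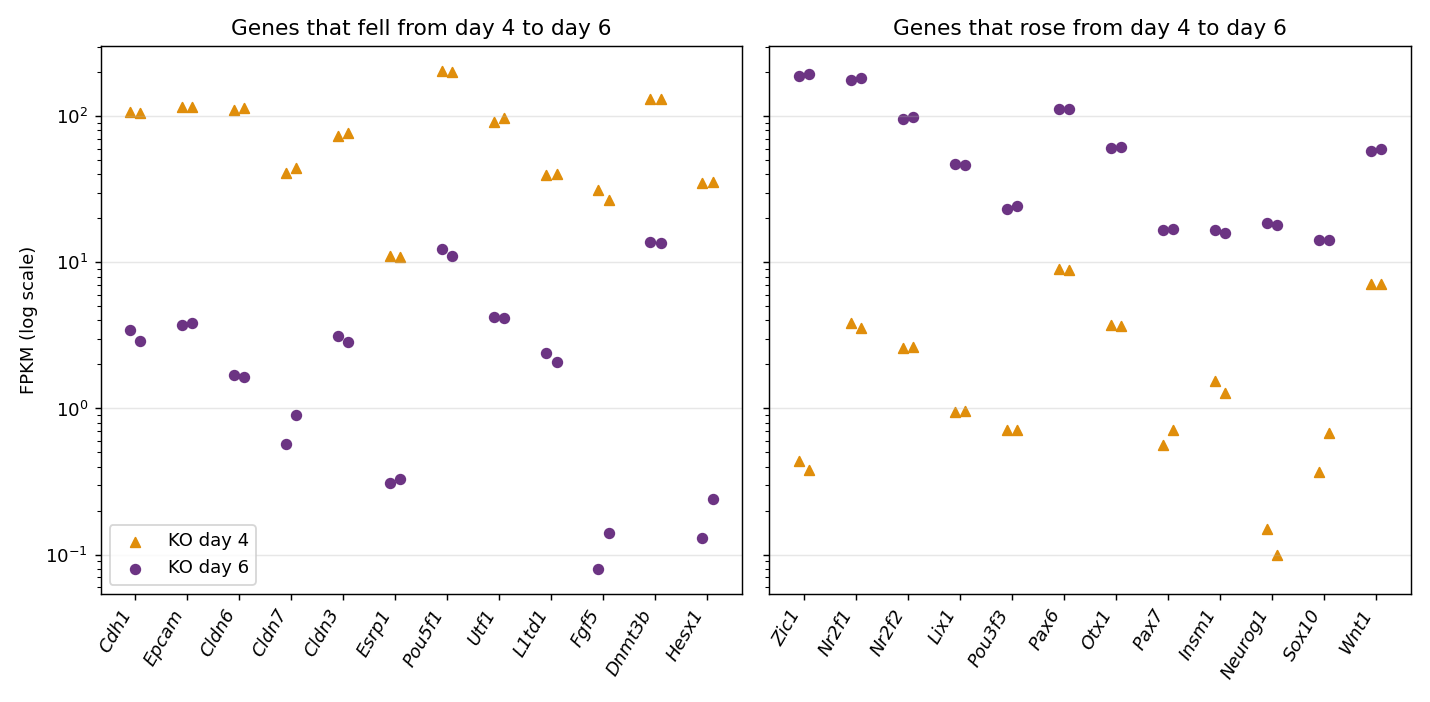
FPKM (log axis) of 12 genes that fell and 12 that rose in the 4 Mettl3 KO libraries of days 4 (triangles) and 6 (circles), 2 libraries per day. The day 4 and day 6 symbols of every gene shown are separated, and the symbols of a day lie close together.

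Neural progenitor genes rose as a group. Of 18 members, 16 rose, 13 of them by at least 1, and 2 fell, with a median change of 1.49. Their summed level went from 586.7 and 587.7 FPKM to 1773.1 and 1769.2 FPKM. Cdh2, the neural cadherin, rose from 33.04 and 33.4 FPKM to 106 and 107 FPKM, by 1.65 ± 0.04 (limma adjusted p = 9.7e-18). At day 4 Cdh1 stood above Cdh2 in both libraries, and at day 6 Cdh2 stood above Cdh1 in both, in FPKM, which are per length. Vim, an intermediate filament protein of radial progenitors, rose from 66.6 and 65.5 FPKM to 319 and 324 FPKM, and Nes, another such filament, rose from 24.1 and 23.3 FPKM to 51.1 and 51.4 FPKM. The SoxB1 gene Sox1, the earliest marker of committed neural plate, rose from 26.5 and 26.6 FPKM to 54.9 and 54.9 FPKM, and Sox3 rose from 60.6 and 63.6 FPKM to 143 and 147 FPKM.

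Several members went from about 1 FPKM or less to a much higher level. Lix1 rose from 0.95 and 0.96 FPKM to 46.8 and 46.2 FPKM, by 4.60 ± 0.06 (limma adjusted p = 2.57e-21). The POU factors Pou3f2 and Pou3f3, which act in neural progenitors and neurons, rose from 0.79 and 1.04 FPKM to 22.01 and 22.2 FPKM and from 0.71 and 0.71 FPKM to 23.4 and 24.1 FPKM. Pantr1, a long non-coding RNA named for its position beside Pou3f3, rose with it, from 0.91 and 1.23 FPKM to 43.3 and 40.9 FPKM. Fabp7, a fatty acid binding protein of radial glia, rose from 53.6 and 48.8 FPKM to 191 and 187 FPKM, and Msi1, an RNA-binding protein of neural stem cells, from 71.2 and 68.9 FPKM to 219 and 210.4 FPKM. The 2 members that fell were the glutamate transporter Slc1a3, from 10.9 and 11.3 FPKM to 1.63 and 1.51 FPKM, and the membrane protein Prom1, from 28.3 and 29.8 FPKM to 25.1 and 24.5 FPKM. The fall of Prom1 was small (-0.22) and was lost with a pseudocount of 0.1.

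The largest rise of any gene tested was that of Zic1, a zinc finger gene of the dorsal neural tube (GRCm38 chromosome 9, 91358058 to 91365810, minus strand). It was low at day 4, with 0.44 and 0.38 FPKM, and reached 189 and 195 FPKM at day 6, a change of 7.10 ± 0.12 (SE, limma adjusted p = 1.01e-19). Its neighbour Zic4 rose from 0.01 and 0.06 FPKM to 5.86 and 5.63 FPKM. Zic2 and Zic5 were already high at day 4 and fell slightly. Zic2 went from 115 and 115 FPKM to 95.3 and 97.98 FPKM and Zic5 from 11.96 and 12.6 FPKM to 10.6 and 10.9 FPKM. Other genes near the top of the list of rises were Wfdc1, from 0.58 and 0.41 FPKM to 92.6 and 96.7 FPKM, the matrix protein vitronectin (Vtn), from 0.17 and 0.34 FPKM to 75.7 and 73.8 FPKM, and the homeobox gene Dbx1 of the developing neural tube, from 0.56 and 0.58 FPKM to 45.5 and 46.6 FPKM. Fam181a, Wfikkn1 and Clec2l followed, with changes of 4.58, 4.52 and 4.38.

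Genes of position showed both rises and falls. Among 11 measured anterior forebrain genes, 8 rose, 2 fell and 1 did not pass, with a median of 1.34. Of these, 6 rose by at least 1, and the largest rises were those of Nr2f1 and Nr2f2, orphan nuclear receptors that pattern the forebrain. Nr2f1 rose from 3.85 and 3.58 FPKM to 176 and 183 FPKM, by 5.26 ± 0.09 (limma adjusted p = 3.6e-20), and Nr2f2 rose from 2.60 and 2.62 FPKM to 95.2 and 98.1 FPKM. The list summed to 302.2 and 314.1 FPKM at day 6, and Nr2f1 and Nr2f2 made up most of that. Whether the rises mark anterior forebrain as such was not tested. Hesx1, a repressor of the most anterior neural plate, fell from 35.1 and 35.6 FPKM to 0.13 and 0.24 FPKM (-4.94 ± 0.13, limma adjusted p = 2.9e-17). Emx2, a factor of dorsal forebrain, rose from 1.75 and 2.84 FPKM to 8.22 and 10.4 FPKM, and Fezf1 fell from 1.92 and 2.00 FPKM to 0.76 and 0.97 FPKM. Dlx1 and Nkx2-1 did not reach the minimum level.

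Genes of the diencephalon and midbrain mostly rose in the KO libraries, though not all reached a high level. Of 19 measured members, 13 rose, 9 of them by at least 1, 3 fell and 3 did not pass, with a median of 0.70, or of 2.24 among members with a mean of at least 5 FPKM. The Iroquois genes Irx1 and Irx2 rose from 31.1 and 29.2 FPKM to 149 and 148 FPKM and from 17.8 and 17.3 FPKM to 101 and 105 FPKM. Irx3 was at 95.1 and 95.99 FPKM at day 4 and 95.3 and 98.2 FPKM at day 6 and did not pass (limma adjusted p = 0.812), and Irx5 rose by 0.35. Otx1, a homeobox gene of forebrain and midbrain, rose from 3.72 and 3.67 FPKM to 60.6 and 61.6 FPKM, by 3.73 ± 0.04 (limma adjusted p = 3.62e-22). The dorsal midbrain genes Dmbx1 and Pax7 rose from 8.40 and 8.55 FPKM to 51.3 and 50.5 FPKM and from 0.56 and 0.71 FPKM to 16.6 and 16.8 FPKM. Barhl2, of the diencephalon, rose from 0.20 and 0.20 FPKM to 12.4 and 12.7 FPKM.

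The members that fell in this list act at or near the border between midbrain and hindbrain or in the early forebrain. En1 fell from 9.20 and 9.21 FPKM to 1.29 and 1.31 FPKM, Pax5 from 0.78 and 1.42 FPKM to 0.29 and 0.25 FPKM and Lhx5 from 11.4 and 11.7 FPKM to 5.10 and 5.18 FPKM. En2, the paralog of En1, rose by 0.49 and was at 1.65 and 1.64 FPKM at day 6. Lhx1, Sim1 and Sim2 did not reach the minimum level. Hindbrain genes were low in the libraries. Only 4 of 13 hindbrain and Hox genes reached the minimum level in any 2 libraries of the series, and these 4 summed to 2.4 and 2.3 FPKM at day 4 and to 6.1 FPKM in each library at day 6. The Hox gene Hoxb2 was at 0.33 and 0.19 FPKM at day 6.

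Proneural and Notch pathway genes were present at day 4 and mostly rose by day 6, from summed levels of 254.7 and 260.8 FPKM to 534.5 and 535.7 FPKM. Of 24 measured proneural and Notch pathway genes, 17 rose, 11 of them by at least 1, 3 fell and 4 did not pass, with a median of 0.78, or of 0.36 among members with a mean of at least 5 FPKM. Hes5, a repressor that Notch signalling activates in neural progenitors, had one of the clearest rises. Its promoter is shown because Notch acts through the DNA-binding protein Rbpj, whose core sequence TGGGAA, on either strand, is in capitals in the 250 bases before the start from RefSeq (GRCm38.p6, plus strand, 5′ to 3′).
Hes5, chr4:154960673-154960922: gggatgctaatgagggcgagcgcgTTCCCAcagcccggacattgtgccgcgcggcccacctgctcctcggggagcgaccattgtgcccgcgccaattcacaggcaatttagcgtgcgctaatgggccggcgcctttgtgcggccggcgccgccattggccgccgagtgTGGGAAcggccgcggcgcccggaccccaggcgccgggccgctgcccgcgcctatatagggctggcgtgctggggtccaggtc
The 2 matches start 226 and 82 bases before the transcription start. The same letters were present in 21.6% of all 32851 promoters and in 24.1% of 27025 genes, counting any promoter of a gene. Counted by gene in the same way, they were present in 1 of 13 proneural and Notch genes that rose and have an entry (7.69%). They were also present in 6 of 12 neural progenitor genes that rose (50%) and 4 of 9 epithelial genes that fell (44.4%). Hes5 (GRCm38 chromosome 4, 154960923 to 154962371, plus strand) rose from 8.21 and 10.2 FPKM to 144 and 147 FPKM, by 3.85 ± 0.18 (SE, limma adjusted p = 2.95e-13). Hes3 rose from 3.45 and 3.29 FPKM to 39.4 and 41.05 FPKM. Hes1, the third Hes repressor of progenitors, went the other way, from 50.8 and 51.6 FPKM to 27.6 and 27.3 FPKM (-0.88 ± 0.08, limma adjusted p = 4.16e-09).

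The Notch ligand Dll1 rose from 6.55 and 6.96 FPKM to 38.5 and 35.9 FPKM and the ligand Jag1 from 6.20 and 6.02 FPKM to 16.8 and 17.6 FPKM, while Jag2 fell from 15.9 and 15.8 FPKM to 8.91 and 9.79 FPKM. The receptors moved little, with Notch1 rising by 0.36 and Notch3 by 0.62, and Notch2 at 6.54 and 6.62 FPKM and 6.79 and 6.80 FPKM not passing. Lfng, a glycosyltransferase that tunes Notch receptors, rose from 14.1 and 14.9 FPKM to 84.3 and 84.7 FPKM, and the feedback inhibitor Nrarp from 15.7 and 15.98 FPKM to 69.7 and 74.5 FPKM. The proneural basic helix-loop-helix genes Neurog1 and Neurog2 started at a low level. Neurog1 rose from 0.15 and 0.10 FPKM to 18.5 and 17.9 FPKM, by 4.09 ± 0.07 (limma adjusted p = 1.41e-19). Neurog2 rose less, from 1.07 and 0.91 FPKM to 2.05 and 2.41 FPKM. Insm1, a zinc finger gene of newborn neuronal precursors, rose from 1.53 and 1.27 FPKM to 16.7 and 15.8 FPKM, and Neurod4 from 0.08 and 0.12 FPKM to 3.24 and 3.07 FPKM. Atoh1 did not reach the minimum level. Gadd45g, a growth arrest gene expressed in differentiating precursors, rose from 9.94 and 8.47 FPKM to 73.4 and 76.4 FPKM.

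Neuronal genes followed in part. Of 28 measured, 18 rose, 5 fell and 5 did not pass, with a median of 0.53. Tubb3, the neuronal beta tubulin, rose from 130.02 and 131 FPKM to 268 and 264 FPKM. Its level at day 0 was already 189.9 FPKM, so a high value is not by itself a sign of neurons in these cells. Among members with a mean of at least 5 FPKM the median was 0.13. The next 3 genes were chosen for a low day 4 level after their values were seen. Nhlh1, a helix-loop-helix gene of new neurons, rose from 0.22 and 0.23 FPKM to 10.1 and 11.1 FPKM, Ebf3 from 0.51 and 0.54 FPKM to 6.39 and 6.32 FPKM and the RNA-binding protein Elavl4 from 0.92 and 0.50 FPKM to 7.04 and 6.31 FPKM. The sensory neuron factor Pou4f1 rose from 2.56 and 3.30 FPKM to 21.5 and 22.9 FPKM, and Gap43, of growing axons, from 16.7 and 16.7 FPKM to 47.6 and 47.2 FPKM. Dcx, a microtubule protein of migrating neurons, rose but stayed low, at 1.55 and 1.43 FPKM. The growth-associated Stmn2 fell from 44.2 and 44.1 FPKM to 23.4 and 23.1 FPKM, and the filament genes Ina and Nefl fell by 0.81 and 0.77. Mapt did not pass, and the transmitter genes Slc17a6 and Gad1 did not reach the minimum level.

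Axon guidance genes rose more often than they fell. Of 22 measured, 14 rose, 6 fell and 2 did not pass, with a median of 1.01, or of 0.24 among members with a mean of at least 5 FPKM. The repulsive ligands Slit1 and Slit2 rose from 0.89 and 0.93 FPKM to 7.53 and 7.75 FPKM and from 0.51 and 0.50 FPKM to 10.4 and 10.6 FPKM, and Slit3 fell from 7.83 and 7.84 FPKM to 2.44 and 2.45 FPKM. The netrin receptor Dcc rose from 0.08 and 0.06 FPKM to 4.97 and 5.01 FPKM, while its ligand Ntn1 fell from 15.1 and 14 FPKM to 2.53 and 2.72 FPKM. Efnb1, a membrane-bound ephrin, rose from 11.1 and 11.9 FPKM to 79.1 and 82.1 FPKM and its receptor Ephb1 fell from 9.71 and 10.1 FPKM to 1.91 and 2.24 FPKM. Epha7 rose from 6.47 and 5.78 FPKM to 27.8 and 27.3 FPKM.

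Genes of the neural crest and the neural plate border rose as well. Of 18 members, 13 rose, 10 of them by at least 1, 4 fell and 1 did not pass, with a median of 1.08. Pax3, which acts at the plate border, rose from 2.57 and 2.33 FPKM to 32.96 and 32.8 FPKM, and Msx1, a target of BMP at the dorsal midline, from 4.51 and 4.63 FPKM to 52.5 and 54.5 FPKM. Sox10, which marks migrating crest, rose from 0.37 and 0.68 FPKM to 14.2 and 14.3 FPKM, by 3.33 ± 0.09 (limma adjusted p = 1.14e-16), and Tfap2b rose from 0.16 and 0.17 FPKM to 16.03 and 14.9 FPKM. The roof plate genes Lmx1a and Gdf7 rose from 0.72 and 0.72 FPKM to 5.73 and 5.72 FPKM and from 0.17 and 0.40 FPKM to 4.67 and 4.81 FPKM. Lmx1b fell from 27.2 and 26.6 FPKM to 3.70 and 3.97 FPKM, Sox9 from 16.2 and 15.9 FPKM to 8.88 and 8.31 FPKM and Twist1 from 27.6 and 29.7 FPKM to 19.7 and 20.6 FPKM. Among members with a mean of at least 5 FPKM over all 32 libraries the median was -0.49. That filter can also leave out genes that are high in few groups, so whether low genes carried the rises was not tested.

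The label of a retinal differentiation was checked against the eye field genes, and most were low at both days. Of 15 members, 5 rose, 4 fell and 6 did not pass, with a median of 0.01. Rax, the gene that marks and is needed for the eye field, fell from 1.20 and 1.21 FPKM to 0.28 and 0.32 FPKM. Six3 fell from 7.08 and 7.18 FPKM to 0.69 and 0.58 FPKM, by 2.31 ± 0.07 (limma adjusted p = 4.35e-16), and Pax2, of the ventral optic vesicle, from 5.57 and 5.60 FPKM to 0.40 and 0.36 FPKM. Six6 was at 0.02 and 0.02 FPKM at day 6, under the level of 3 fragments on a 2 kb transcript. Lhx2 had 4.52 and 4.67 FPKM at day 4 and 4.59 and 5.35 FPKM at day 6 and did not pass (limma adjusted p = 0.585). The transcript of the eGFP reporter of the line was at 0.44 and 0.33 FPKM and 0.00 and 0.29 FPKM, with 1 day 6 library listed at 0, and did not pass. In WT organoids it went from 31.8 ± 0.61 to 195 ± 7.62 FPKM (SD, n = 2).

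The eye field genes that rose are also used in other parts of the anterior neural tube. Pax6 rose from 8.99 and 8.84 FPKM to 111 and 112 FPKM, by 3.51 ± 0.15 (limma adjusted p = 8.89e-14), Mab21l2 from 37.1 and 37.9 FPKM to 212 and 211 FPKM and Mab21l1 from 0.67 and 0.53 FPKM to 19.5 and 19.1 FPKM. Otx2, a factor of the whole forebrain and midbrain, stayed high without passing, at 200.3 and 203 FPKM and 203 and 204 FPKM. The summed level of the list, 267.2 and 270.2 FPKM at day 4 and 555.5 and 557.8 FPKM at day 6, was therefore almost wholly Otx2, Mab21l2 and Pax6. Vax1 rose by 0.76, but on the strength of 1 library. Its day 6 values were 0.39 and 2.26 FPKM, and without the second the change was 0.15 (limma adjusted p = 0.434). Of 10 retinal neuron genes only Crx, Pou4f2 and Prdm1 were measured, and Crx, the photoreceptor factor, rose to 1.13 and 1.36 FPKM. The melanin genes Tyr, Tyrp1 and Slc45a2 did not reach the minimum level, and Mitf and Dct were at 1.00 and 0.81 FPKM and 0.37 and 0.20 FPKM at day 6.

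Signalling genes were read by role, beginning with the Wnt pathway. Of 41 measured members, 25 rose, 8 fell and 8 did not pass, with a median of 0.33, or of 0.62 with a pseudocount of 0.1. Several ligands rose. Wnt1, secreted by the dorsal midline and the midbrain border, rose from 7.14 and 7.14 FPKM to 57.96 and 59.4 FPKM, by 2.87 ± 0.05 (limma adjusted p = 7.68e-20), Wnt3 from 0.65 and 0.80 FPKM to 8.02 and 8.21 FPKM and Wnt5a from 0.84 and 0.73 FPKM to 6.44 and 5.47 FPKM. The R-spondins, which amplify Wnt signals, rose too, with Rspo2 from 0.10 and 0.07 FPKM to 18.4 and 18.2 FPKM, Rspo3 from 0.38 and 0.34 FPKM to 9.32 and 9.44 FPKM and Rspo1 from 21.9 and 21.9 FPKM to 49.5 and 48.9 FPKM. Among receptors, Fzd10 rose from 4.02 and 4.33 FPKM to 129 and 129.5 FPKM (4.65 ± 0.07, limma adjusted p = 1.22e-20). Fzd5, a receptor needed in the eye field, fell from 20.2 and 21.4 FPKM to 1.12 and 1.16 FPKM, Fzd8 from 12.2 and 12.3 FPKM to 5.22 and 5.13 FPKM and Fzd7 from 46.1 and 46.8 FPKM to 18.2 and 17.5 FPKM. The secreted antagonist Dkk1 fell from 4.47 and 4.52 FPKM to 0.63 and 0.45 FPKM. Axin2, a common readout of canonical signalling, rose from 15.2 and 15.8 FPKM to 56.98 and 56.7 FPKM, and the feedback gene Nkd1 from 16.9 and 16.1 FPKM to 40.6 and 40.9 FPKM. Sp5 rose by 0.33 and Lef1 by 0.26, calls that were lost with a pseudocount of 0.1, and Znrf3 and Rnf43 did not pass.

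All 21 measured BMP pathway genes passed, 14 upward and 7 downward, with a median of 0.61. The direct targets Id1, Id2 and Id3, inhibitors of helix-loop-helix factors, rose from 142 and 143 FPKM to 254 and 262 FPKM, from 24.2 and 27.4 FPKM to 107 and 109 FPKM and from 88.5 and 90.5 FPKM to 428 and 429 FPKM. Ligands were divided. Bmp2 rose from 0.04 and 0.10 FPKM to 2.61 and 2.70 FPKM and Gdf11 from 4.74 and 5.06 FPKM to 23.1 and 23.1 FPKM, while Bmp7 fell from 13.2 and 13.2 FPKM to 8.34 and 8.54 FPKM. The extracellular antagonist Nog rose from 1.37 and 0.74 FPKM to 13.2 and 13.01 FPKM, and another, Fst, fell from 14.4 and 14.5 FPKM to 8.52 and 9.32 FPKM. The inhibitory Smad7, itself induced by the pathway, rose from 2.30 and 2.22 FPKM to 5.09 and 4.89 FPKM.

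FGF pathway genes mostly fell. Of 22 measured, 13 fell, 7 of them by at least 1, 4 rose and 5 did not pass, with a median of -0.52, or of -0.88 among members with a mean of at least 5 FPKM. The ETS factors Etv4 and Etv5, which FGF signals induce, fell from 10.7 and 10.98 FPKM to 3.72 and 3.09 FPKM and from 12.5 and 12.6 FPKM to 4.22 and 4.19 FPKM. The feedback inhibitors Spry2 and Dusp6 fell from 9.92 and 10.4 FPKM to 4.50 and 4.30 FPKM and from 14.2 and 14.6 FPKM to 9.28 and 9.04 FPKM, and Dusp4 fell most, from 35.3 and 34.8 FPKM to 5.74 and 6.06 FPKM. Fgf15 fell from 17.1 and 17.4 FPKM to 3.24 and 2.92 FPKM. Receptors differed, with Fgfr1 falling from 134 and 136 FPKM to 98.5 and 98.4 FPKM and Fgfr2 and Fgfr3 rising from 54.9 and 56.2 FPKM to 101 and 99.6 FPKM and from 2.91 and 2.48 FPKM to 17.4 and 17.5 FPKM. Fgf8 rose from 1.49 and 1.46 FPKM to 3.60 and 3.05 FPKM.

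In the Hedgehog list 7 of 11 measured genes rose, 2 fell and 2 did not pass, with a median of 0.41, or of 1.13 among members with a mean of at least 5 FPKM. The ligand Shh and the ventral targets Nkx2-2 and Nkx6-1 did not reach the minimum level. The coreceptors rose, Gas1 from 37.4 and 38.8 FPKM to 179 and 178 FPKM, Cdon from 4.91 and 4.89 FPKM to 34.3 and 34.7 FPKM and Boc from 1.57 and 1.59 FPKM to 18.1 and 18.2 FPKM, as did Gli3, mainly a repressor of the pathway, from 10.2 and 10.3 FPKM to 34.7 and 35.04 FPKM. The direct target Gli1 fell by 0.35, and the target Ptch1 rose by 0.36.

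Retinoic acid genes changed in both directions, 5 up and 5 down of 13, with a median of 0.03. Cyp26a1, the enzyme that degrades retinoic acid, fell from 33.4 and 31.01 FPKM to 0.12 and 0.17 FPKM, by 4.86 ± 0.10 (limma adjusted p = 1.53e-18), one of the deepest falls of all genes. Crabp2, a retinoic acid carrier, rose from 242 and 241 FPKM to 1623 and 1586 FPKM, among the largest rises in FPKM, and Crabp1 rose from 25.9 and 26.6 FPKM to 236 and 228 FPKM. The receptor Rarg fell from 30.8 and 33.7 FPKM to 7.81 and 7.88 FPKM and Rara rose from 15.7 and 14.9 FPKM to 21.6 and 22.5 FPKM. The synthesis genes Aldh1a1, Aldh1a2 and Aldh1a3 were all under 1 FPKM at both days and did not pass.

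**Figure D2:**
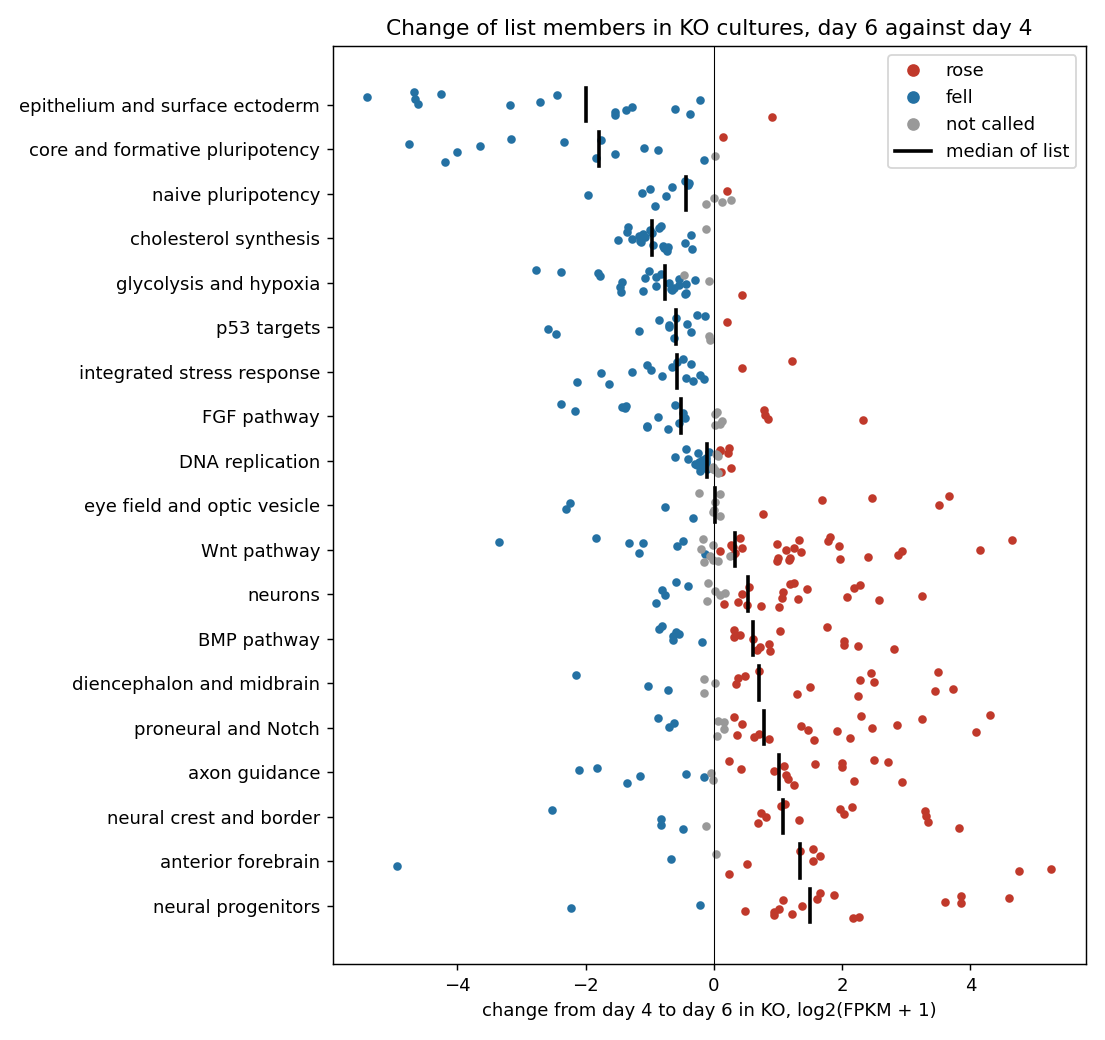
Change from day 4 to day 6 in Mettl3 KO (log2(FPKM + 1) scale, horizontal axis) of each measured member of 19 gene lists, coloured by whether it rose (red), fell (blue) or did not pass (grey), with the list median as a black bar. Epithelial, pluripotency and cholesterol genes lie mainly left of 0, with medians of -2.0 for epithelium and -0.96 for cholesterol synthesis, and neural progenitor genes lie mainly right of it, with a median of 1.49.

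Metabolic genes fell broadly. Of 26 glycolysis and hypoxia genes, 23 fell, 10 of them by at least 1, 1 rose and 2 did not pass, with a median of -0.77. Ldha, which makes lactate, fell from 1788 and 1808 FPKM to 1115 and 1094 FPKM, by 0.70 ± 0.01 (limma adjusted p = 8.65e-19), and Aldoa from 1480.04 and 1483 FPKM to 734 and 731 FPKM. The glucose transporter Slc2a1 fell from 501 and 514 FPKM to 184 and 186 FPKM and the lactate exporter Slc16a3 from 445 and 458 FPKM to 209.6 and 206 FPKM. Hypoxia-responsive genes outside the pathway of glucose breakdown fell too, Ankrd37 from 60.2 and 58.9 FPKM to 15.9 and 16.7 FPKM, Egln3 from 20.6 and 19.8 FPKM to 5.19 and 5.23 FPKM and the peptide hormone Adm from 20.2 and 24.1 FPKM to 2.23 and 2.57 FPKM. Vegfa, the angiogenic factor, was the 1 that rose, from 34.6 and 36.6 FPKM to 47.1 and 49.9 FPKM. The day 4 levels of Ldha and Slc16a3 stood above those of the stem cells, since at day 0 Ldha had a mean of 453 FPKM and Slc16a3 of 13.6. Several glycolytic genes have processed pseudogenes that can share reads, which makes their exact levels uncertain.

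Cholesterol synthesis genes moved as uniformly. Of 22 members, 21 fell, 9 by at least 1, and none rose, with a median of -0.96. Hmgcs1, early in the mevalonate pathway, fell from 146 and 146 FPKM to 66.2 and 67.7 FPKM, by 1.11 ± 0.02 (limma adjusted p = 1.29e-18). Fdps, which makes farnesyl diphosphate, fell from 294 and 294 FPKM to 116 and 112 FPKM and Lss, which makes lanosterol, from 33.1 and 31.7 FPKM to 10.7 and 10.9 FPKM. Srebf2, the transcription factor of the set, fell least among the 21, by 0.34. Ebp had 14.2 and 14.04 FPKM and 13.8 and 12.2 FPKM and did not pass. Here too the day 4 level was above that of day 0, where Hmgcs1 had a mean of 41.7 and Fdps of 163 FPKM.

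**Figure D3:**
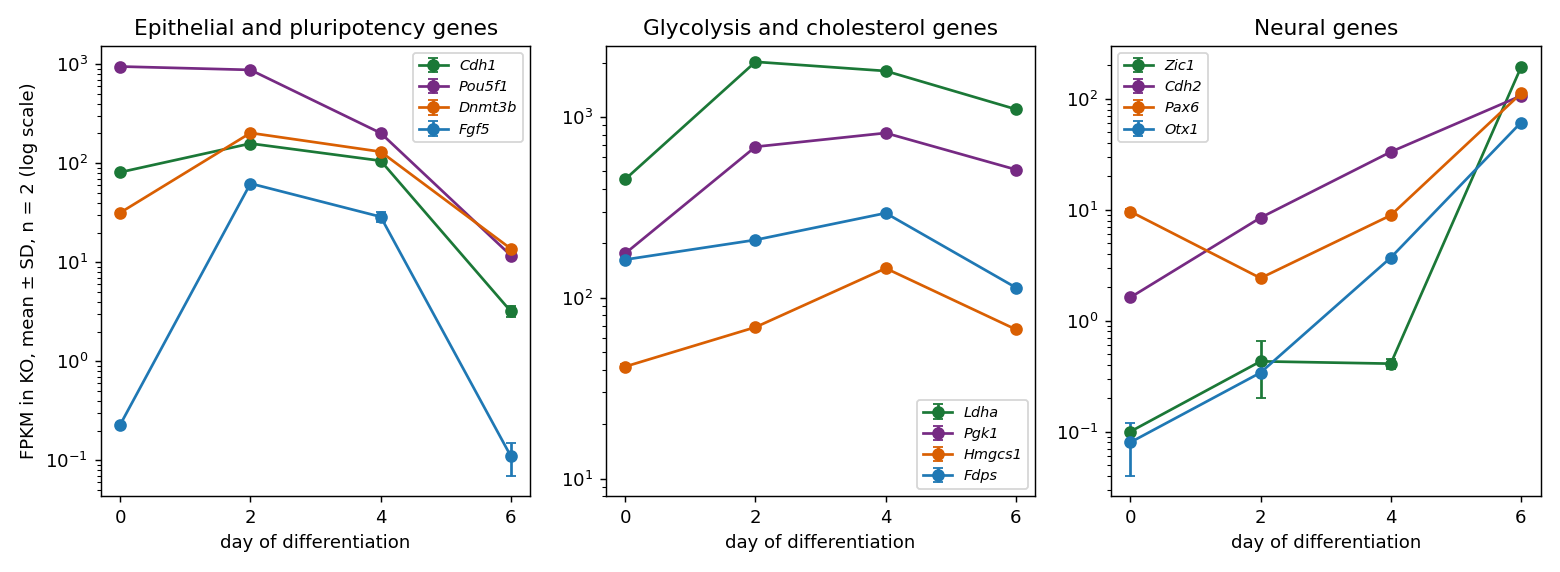
FPKM (log axis) of 12 genes in Mettl3 KO libraries at days 0, 2, 4 and 6, as the mean of 2 libraries with its SD. Cdh1, Pou5f1, Dnmt3b and Fgf5 drop from day 4 to day 6, Ldha, Pgk1, Hmgcs1 and Fdps peak at day 2 or 4, and Zic1, Cdh2, Pax6 and Otx1 are highest at day 6.

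Stress-related lists pointed downward. Of 15 p53 target genes 12 fell, 1 rose and 2 did not pass, with a median of -0.59. The proapoptotic Pmaip1 fell from 15.1 and 15.3 FPKM to 1.78 and 2.06 FPKM and Perp, which also belongs to desmosomes, from 24.4 and 25.4 FPKM to 3.47 and 3.20 FPKM. The best known target, Cdkn1a, a cell cycle inhibitor, rose slightly, from 48.1 and 49.7 FPKM to 56.5 and 56.9 FPKM. All 17 measured genes of the integrated stress response passed, 15 down and 2 up, with a median of -0.57. Trib3 fell from 15.7 and 16.02 FPKM to 2.93 and 2.75 FPKM, Mthfd2 from 68.4 and 66.05 FPKM to 26.9 and 27.9 FPKM and Ddit4 from 369 and 376 FPKM to 186 and 191 FPKM, while Ddit3 and Atf3 rose by 0.43 and 1.21.

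Cell cycle genes changed little in size. None of 29 DNA replication genes and none of 20 mitosis genes changed by 1 or more, and the list medians were -0.11 and -0.06. In the replication list 16 fell, 6 rose and 7 did not pass, and in the mitosis list 9 fell, 3 rose and 8 did not pass. Mki67, present in cycling cells, rose from 29.8 and 29 FPKM to 35.8 and 35.8 FPKM. Larger changes were found among cyclins and kinase inhibitors, of which 10 of 19 rose and 8 fell. Cdk6 fell from 27.98 and 26.5 FPKM to 6.61 and 7.51 FPKM, Ccnd2 rose from 18.3 and 17.6 FPKM to 27.98 and 27.5 FPKM, and the inhibitors Cdkn1c and Cdkn2c rose from 9.48 and 8.54 FPKM to 25.03 and 28.1 FPKM and from 0.80 and 0.67 FPKM to 5.51 and 6.03 FPKM.

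Imprinted genes, 20 of 22 of which passed, were divided into 9 that rose and 11 that fell. The maternally expressed non-coding RNAs Meg3, Rian and Mirg of one cluster on chromosome 12 fell together, from 786 and 799.7 FPKM to 361 and 364 FPKM, from 401 and 403 FPKM to 151 and 153 FPKM and from 160.2 and 164 FPKM to 64.9 and 68.1 FPKM. They are neighbours and not independent. Mest rose from 244 and 258 FPKM to 833 and 817 FPKM and Plagl1 from 1.14 and 1.14 FPKM to 10.5 and 12.2 FPKM, whereas Snrpn fell from 151 and 149 FPKM to 39.02 and 40.3 FPKM and Phlda2 from 14.03 and 13.7 FPKM to 1.91 and 1.58 FPKM. Mitochondrially encoded transcripts, of which 4 rose, 1 fell and 8 did not pass, made up 9.6% and 9.9% of the summed FPKM at day 4 and 10.8% and 10.6% at day 6. Among the largest rises in FPKM were mt-Nd1 and mt-Nd2, by 0.34 and 0.29, the growth factor Mdk, from 673 and 701 FPKM to 1241 and 1264 FPKM, and Metrn, which encodes a secreted neurotrophic protein, from 62.9 and 62.8 FPKM to 504 and 505 FPKM. The largest falls in FPKM were in Gapdh, Ptma, Npm1 and ribosomal protein genes, and Npm1, a nucleolar chaperone, fell from 3653 and 3622 FPKM to 2059 and 2038 FPKM. These abundant genes have many processed copies, so their levels are uncertain.

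Markers of other cell types that the organoids could hold were read in the same libraries. No mesendoderm gene rose, and 6 of 10 measured fell. Their summed level was 16 and 16.5 FPKM at day 4 and 5.8 in each day 6 library. Eomes, the highest of them at day 4, fell from 7.28 and 7.30 FPKM to 0.28 and 0.27 FPKM. Brachyury (T), Mixl1, Mesp1 and Cer1 did not reach the minimum level. In the extraembryonic endoderm list 4 of 20 members rose, 6 fell and 10 did not pass, with a median of -0.06. Its summed level was 888.8 and 899.8 FPKM at day 4 and 794.0 and 794.9 FPKM at day 6, most of it Apoe, a lipid carrier, with 689 and 697 FPKM and 618 and 619 FPKM, and matrix genes such as Sparc. The members that rose were Pdgfra, Col4a2, Dab2 and Cubn, by 0.80, 0.74, 0.56 and 0.13. The defining endoderm genes Afp, Ttr and Hnf4a were at or near 0 in all 4 libraries, with Hnf4a, the highest, at 0.06 and 0.10 FPKM at day 4. Mesenchyme and muscle genes, by contrast, rose in 11 of 13 measured members, from summed levels of 18.5 and 18.0 FPKM to 45.1 and 43.6 FPKM. Acta2, a smooth muscle actin, rose from 0.39 and 0.32 FPKM to 12.1 and 10.97 FPKM and the collagens Col5a2 and Col3a1 from 1.32 and 1.21 FPKM to 8.48 and 8.14 FPKM and from 0.32 and 0.36 FPKM to 2.64 and 2.90 FPKM, with Myod1, Myh3 and Tnnt2 under the minimum. The part of such cells in the rises of neural crest genes was not tested. Blood and vessel markers summed to 1.2 and 1.1 FPKM at day 6.

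The change of the KO libraries was then set against that of WT organoids over the same days, and the difference of the 2 changes was tested in the same limma fit. It passed for 7808 genes (48%), with 2846 (17.5%) changing more upward in KO and 4962 (30.5%) more downward. That split depended on scaling. The share of differences that were higher in KO was 36.4% as deposited and 55.2% after rescaling each library by the median of ratios, with the median over all genes moving from -0.08 to 0.02. Among the 468 list members with such a difference, rescaling turned the sign of 2, Pfkl and Trim71, and removed 43 calls. In 2744 genes with a difference the changes of the 2 lines had opposite signs. Genes of chromosome 8 had a median WT change of 0.02, below the 0.05 to 0.18 of the other chromosomes, and a median KO change of 0.05, inside the range of the others. Cdh1 and Wfdc1 lie on it, and the part of this shift in their differences was not tested.

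The gap between the list medians of the 2 lines was largest for eye field genes. In 14 of 15 the change differed, 12 of them lower in KO, and the WT median change of the list was 4.00 against 0.01 in KO. Lhx2 rose in WT from 13.7 ± 1.03 to 234 ± 8.14 FPKM (SD, n = 2), and the difference of the changes was -3.91 ± 0.19 (SE, limma adjusted p = 4.83e-12). For Rax, WT went from 31.1 ± 0.59 to 118 ± 4.71 FPKM and the difference was -2.65 ± 0.09 (limma adjusted p = 1.51e-14). Pax2 moved in opposite directions, rising in WT from 3.29 ± 0.13 to 39.5 ± 0.86 FPKM, with a difference of -5.49 ± 0.07 (limma adjusted p = 1.41e-20). Six6 went from 0.27 to 69.7 FPKM in WT and stayed near 0 in KO. Pax6 was nearly shared, with WT going from 5.08 ± 1.25 to 110.1 ± 1.47 FPKM and a difference of only -0.70 ± 0.21 (limma adjusted p = 0.00983).

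Epithelial genes mostly fell in both lines and fell further in KO, with a more downward change in 14 of 16 members and a more upward one in 1. Cldn6 went from 131 ± 1.68 to 27.2 ± 0.68 FPKM in WT, so the fall in KO was deeper, with a difference of -3.19 ± 0.14 (limma adjusted p = 5.99e-13). Cdh1 went from 74.3 ± 0.95 to 9.62 ± 0.21 FPKM in WT, with a difference of -1.85 ± 0.06 (limma adjusted p = 5.11e-15). For Dnmt3b the 2 lines were almost alike, with WT going from 309 to 30.6 FPKM, with a difference of 0.13 ± 0.04. Pou3f1 fell to 19.3 and 18.99 FPKM in KO but went from 69.5 ± 0.76 to 4.43 ± 0.34 FPKM in WT, a difference of 2.83 ± 0.08 (limma adjusted p = 7.32e-16).

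Genes of neurogenesis, of the neural crest and plate border and of the diencephalon and midbrain changed more upward in KO more often than more downward. This held for 14 neural crest and border genes against 2, for 16 proneural and Notch genes against 7, for 19 neuronal genes against 3 and for 10 diencephalon and midbrain genes against 6. It did not hold for neural progenitor genes, with 9 more upward in KO and 9 more downward. Their median change was 1.49 in KO and 1.23 in WT. Of anterior forebrain genes 1 was more upward in KO and 8 more downward, with medians of 1.34 in KO and 1.92 in WT. Of the 4 measured hindbrain and Hox genes, 1 was more upward in KO and 1 more downward. Msx1 went from 3.15 ± 0.37 to 1.85 ± 0.04 FPKM in WT, and its difference was 3.83 ± 0.13 (limma adjusted p = 1.33e-14). Pax7 and Irx1 went from 0.04 to 0.28 FPKM and from 1.66 to 2.03 FPKM in WT, with differences of 3.14 and 2.08. The Notch targets separated, with Hes5 changing more upward in KO by 2.75 ± 0.25 and Hes1, which went from 26.99 ± 2.41 to 182 ± 11.7 FPKM in WT, more downward, with a difference of -3.59 ± 0.11. Tubb3 fell in WT from 120.2 ± 0.45 to 29.2 ± 0.39 FPKM while it rose in KO, a difference of 3.03 ± 0.04 (limma adjusted p = 1.41e-20). Cholesterol genes fell further in KO in 20 of 22 members with none the other way, and after rescaling in 19 with 1 the other way. Hmgcs1 went from 113 ± 0.98 to 98.4 ± 1.12 FPKM in WT, a difference of -0.91 ± 0.03.

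**Figure D4:**
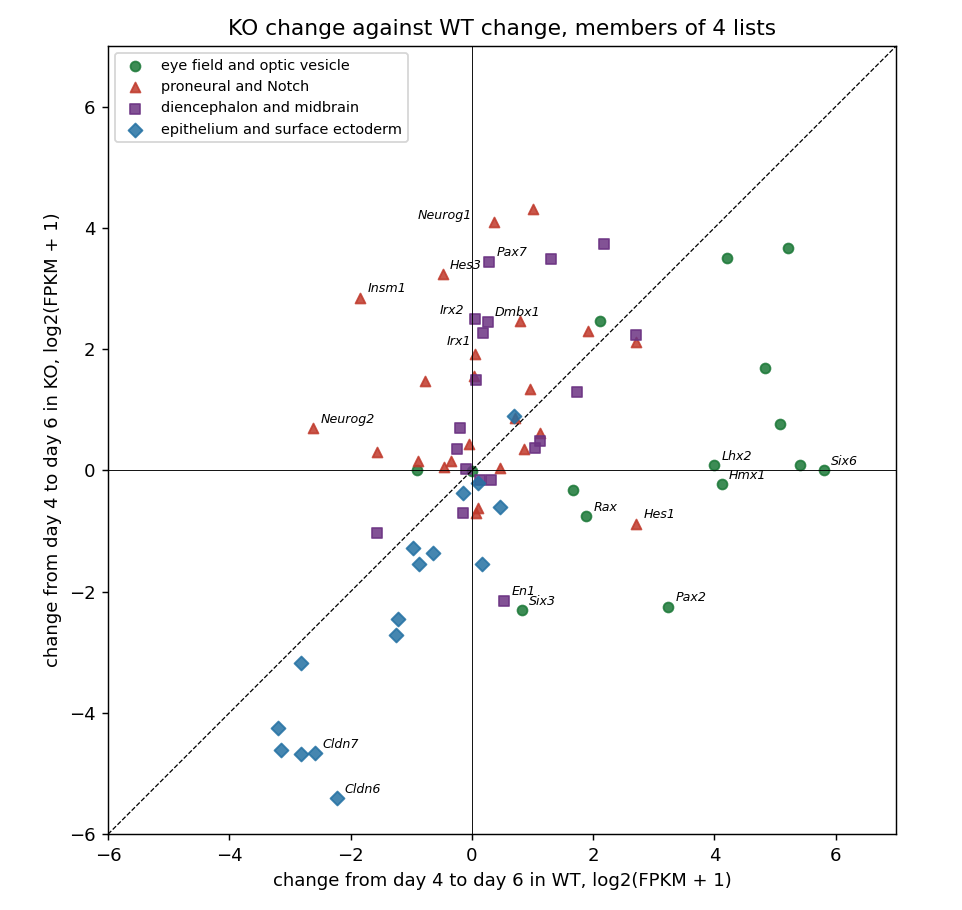
Change from day 4 to day 6 in Mettl3 KO (vertical axis) against that in WT (horizontal axis), both on the log2(FPKM + 1) scale, for the members of 4 gene lists, with 18 of them named. Eye field genes such as Lhx2 and Pax2 lie below the dashed line of equal change, and Insm1, Neurog1 and Pax7 lie above it.

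Against the KO line carrying the METTL3-GRBD fusion and given Dex, the change differed in 6364 genes (39.1%), with 2702 (16.6%) more upward in KO and 3662 (22.5%) more downward. The share higher in KO moved from 42.5% to 52.9% with rescaling, and none of the 379 list members with a difference changed sign. The KO libraries enter both this comparison and the one with WT, so the 2 sets of differences are not independent. By itself the comparison does not separate the fusion line from the Dex given to it. The epithelial list was lower in KO in 15 of 16 members. Cldn6 went from 44.1 ± 1.34 to 7.86 ± 0.06 FPKM (SD, n = 2) in the Dex group, a difference of -3.06 ± 0.14 (limma adjusted p = 1.94e-12). The change of eye field genes differed in 14 of 15, more downward in KO in 10 and more upward in 4. Six6 and Hmx1 had means going from 0.17 to 6.39 FPKM and from 0.35 to 17.9 FPKM in the Dex group, with differences of -2.66 and -4.04. Rax went from 74.5 ± 0.40 to 54.7 ± 1.15 FPKM, a difference of -0.32 ± 0.09 (limma adjusted p = 0.00707). Neuronal genes were more upward in KO in 20 members and more downward in 1, and proneural and Notch genes in 15 and 5. Hes5 went from 25.6 ± 0.85 to 55.4 ± 3.22 FPKM and Hes3 from 5.75 ± 0.38 to 5.15 ± 0.25 FPKM, with differences of 2.77 ± 0.25 and 3.37 ± 0.16. Pax7 and Pax3 went from 0.22 to 1.49 FPKM and from 2.19 to 3.80 FPKM in the Dex group, below their KO levels at day 6, with differences of 2.40 and 2.70. Cholesterol genes fell further in KO in 16 of 22 members with none the other way, and after rescaling in 16 with 1 the other way. Pigment genes separated the groups in another way. Trpm1 went from 0.03 ± 0.00 to 46.7 ± 1.27 FPKM and Pmel from 3.23 ± 0.23 to 33.1 ± 2.32 FPKM in the Dex group, whereas in KO Trpm1 was at 0.20 and 0.22 FPKM and Pmel at 0.54 and 0.63 FPKM at day 6.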

How the data were processed

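PolyA RNA of 32 libraries was sequenced on an Illumina NovaSeq. Per the submitters' processing notes the tools STAR and Cuffdiff and the build mm10 were used, with no versions or roles. The authors deposited 1 table of FPKM values per gene and library, and no count table was used here. Per the labels' protocols, each duplicate had its own library construction and sequencing round. Columns were matched to libraries by name, and 0 per-sample columns were left unmatched.

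Values were taken as log2(FPKM + 1). Genes with at least 1 FPKM in at least 2 libraries (16276) entered a limma fit (version 3.58.1, R 4.3.3, trended prior) of 16 group means over all 32 libraries, with 16 residual degrees of freedom, since groups of 2 give too few alone. Contrasts were the KO change from day 4 to day 6 and its difference from the WT change and from that of the fusion line with Dex. P-values were two-sided and adjusted by Benjamini-Hochberg over all genes tested, with a threshold of 0.05. On data simulated for the KO contrast (5 simulations of 16276 genes), 92.2% of changed genes were recovered and 3.6% of calls were false. Far fewer genes were changed there than passed in the data, most of them by more than the median size of the real calls. The noise was drawn from the spread within library pairs. These rates therefore need not hold for the real calls. Depth was read from low FPKM values, of which 89.4% to 91.5% per library lay within 0.2 of a whole fragment (40% by chance).

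Genes named are members of the lists, the 12 largest rises and falls on the log2 scale and the 8 in FPKM among genes with a mean of at least 5 FPKM in the higher group and libraries that do not overlap, and the 6 most positive and most negative differences from WT and from Dex among genes with that mean in a KO group. Predicted and pseudogene symbols were passed over. Some list members enter the counts, medians and sums but are not reported by name here. The members and lists were chosen with earlier results of these data known. Positions are from GENCODE M21 on GRCm38, which matched 99.5% of rows. Promoters are from a RefSeq table on GRCm38.p6, which has an entry for 9 of the 15 epithelial genes that fell. Replicate numbers were checked for pairing. Deviations from the group means correlated between same-numbered libraries with r of -0.09 to 0.13 (120 group pairs), and numbers were not used to pair libraries. Alternatives changed the pseudocount (0.1), the filter (none, or a mean of at least 5 FPKM), the scaling (median of ratios), the groups in the fit, a replicate block, each library left out and a minimum log2 change of 1. The mean of that filter was taken over all 32 libraries.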

Additional observations from a re-analysis of the deposited data

Results flagged for a closer look

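By limma's test of the difference itself, Mettl3 KO and WT organoids changed by unlike amounts between days 4 and 6 in 7808 genes. The most positive differences, in log2(FPKM + 1) units of KO change minus WT change, were those of Wfdc1 (5.14), Insm1 (4.68), Fzd10os (4.23), Vtn (4.00), Fzd10 (3.93) and Gadd45g (3.84). Fzd10os, a non-coding neighbour of Fzd10 on the other strand, held 0.22 and 2.33 FPKM in the day 4 KO libraries, so its value is uncertain. The most negative were those of Pax2 (-5.49), Cyp26a1 (-5.14), Shisa2 (-4.61), Irs4 (-4.07), Hes1 (-3.59) and Fzd5 (-3.58).

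Against the fusion line with Dex the change differed in 6364 genes. The most positive differences, KO change minus Dex change, were those of Hes3 (3.37), Phlda1 (2.88), Mest (2.85), Pou3f1 (2.83), Hes5 (2.77) and Otx1 (2.74). The most negative were those of Wnt7b (-3.82), Cyp26a1 (-3.29), Fuom (-3.10), Cldn6 (-3.06), H19 (-2.91) and Chst1 (-2.85). In the fusion line without Dex, Wnt7b changed by 4.52 and Chst1 by 1.96, close to 4.81 and 2.07 with Dex. The changes without Dex of Cyp26a1 (-4.60), Fuom (-1.44), Cldn6 (-4.99) and H19 (0.21) lay nearer to those of KO. Among the most positive differences, so did those of Hes3 (2.26), Phlda1 (1.89), Mest (1.24), Hes5 (2.86) and Otx1 (2.77). Pou3f1 changed by -2.72 without Dex, nearer to -3.70 with Dex than to -0.87 in KO. The part of Dex in these differences was not tested. H19 did not pass the test in KO itself (change 0.10, limma adjusted p = 0.333), and its difference comes from the Dex group, where its mean went from 96.2 to 783 FPKM.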

How the results depend on the processing

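Among 602 named values of the KO change, no call reversed its direction under the alternatives run. The differences from WT of Pfkl and Trim71 turned sign with median-of-ratios scaling. Requiring a mean of at least 5 FPKM over all 32 libraries left 9412 genes and 7016 calls between the KO days, fewer genes tested being part of the drop. A minimum log2 change of 1 left 1811 genes for the KO days, 915 for the difference from WT and 673 for that from Dex. Leaving out 1 library at a time gave 9668 to 9767, 6978 to 7211 and 5606 to 5712 genes, with the lone library of a group assumed to vary like the other groups. The replicate block gave 10624, 7775 and 6321 genes and changed 5 of 602 calls of list genes. Pseudocount 0.1, no filter, median-of-ratios scaling and a fit of the compared groups alone all gave counts within 1.5 times. Without the genes of chromosome 8, an alternative chosen after seeing the data, the counts were 10030, 7359 and 6005.

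Among 602 named values, calls lost or gained were 14 with pseudocount 0.1, 10 with no filter, 3 with rescaling, 24 with only the compared groups, 21 and 23 without the first or second KO day 4 library, 17 and 28 without the first or second KO day 6 library, and 265 with a minimum log2 change of 1. With a mean of at least 5 FPKM, 410 of them had a value and 1 call was gained.

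Of 20 list medians of at least 0.3 in size, 11 moved by over 1.5 times. With pseudocount 0.1 these were epithelium (-3.11), mesenchyme (2.21), neural crest (1.70), proneural and Notch (1.64), mesendoderm (-1.56), neurons (0.89) and Wnt (0.62). With a mean of at least 5 FPKM they were epithelium (-3.18), diencephalon and midbrain (2.24), Hedgehog (1.13), FGF (-0.88), neural crest (-0.49, which turned sign), proneural and Notch (0.36), mesenchyme (0.25), axon guidance (0.24), neurons (0.13) and mesendoderm (-0.11). None of these 20 moved so far when 1 library was left out. Of the smaller medians, 12 moved by over 1.5 times, 10 of them when 1 library was left out, by at most 0.19 there. With a mean of at least 5 FPKM, pigment cells (-0.72), hindbrain (-0.18), imprinted genes (0.05) and retinoic acid (-0.05) turned sign, and hindbrain did so without the first KO day 4 (-0.02) or day 6 (-0.03) library. Depth limits statements on genes under about 0.05 FPKM, such as Six6.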
